A study of Mus musculus with 9 samples.

Results

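The lysosomal enzymes and membrane proteins described here were 37 genes, chosen by name from 31053 in the deposited count matrices. They comprised 11 cathepsins and other proteases, 8 glycosidases and 1 sulfatase, 4 lipid hydrolases, 3 activators and granulin genes, 9 membrane proteins and the transcription factor Tfeb. Their levels were compared across the cell types recovered from adult mouse brain and, in microglia, between untreated mice, mice depleted of microglia and mice in which the cells had begun to return.

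The mice were females aged 5 months, of the strain C57BL/6 in the labels and C57BL/6J in the methods of the study. Ctrl mice were untreated. D0 mice received PLX5622, an inhibitor of the Csf1 receptor on which microglia depend, in the diet at 1200 mg/kg for 14 days. D2 mice received the same diet for 14 days and then control diet for 2 days. Each group had 3 libraries, each from 1 brain in Ctrl and from 2 pooled brains in D0 and D2. Brains without cerebellum were digested with enzymes at 37 °C for 45 minutes, freed of myelin and sorted for live cells carrying CD11b, a surface protein of myeloid cells. The 10x Chromium 3′ v3 assay then counted transcripts as unique molecular identifiers (UMIs). As reads came from the 3′ end, levels are given as CPM, UMIs scaled to a common library total, with no division by length.

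Lysosomes are acidic compartments in which hydrolases degrade proteins, lipids and glycans delivered by phagocytosis, endocytosis and autophagy. Most soluble enzymes are sorted there through mannose 6-phosphate tags, whereas integral membrane proteins such as Lamp1 and Lamp2 form the limiting membrane. Microglia, the phagocytes of the brain parenchyma, are rich in cathepsins, and inherited loss of many of these enzymes causes lysosomal storage disease with microglial and neuronal changes.

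Total UMIs ranged from 20257894 to 61230741 in 8 libraries, from which 28655 cells were kept, and at most 7 barcodes were shared between any pair of libraries. The third D2 library, D2-3, stood apart. Its cells were placed in clusters formed from the other 8 libraries. Only 825 of them were microglia-like, and 170 of these lay outside the clusters of dividing cells. The members summed to 1.64% of UMIs there, against 3.32% to 4.45% in the other 8 libraries. Its 10 microglia markers summed to 8845 CPM, against 17369 to 32532 in the others. The study left it out, and the values below rest on the other 8 libraries. Including it ended all 13 calls on members described below. In the other libraries the microglia marker sum was 28174 to 32532 CPM in Ctrl microglia-like cells, 20254 to 22548 in those of D0 and 17369 to 18173 in those of D2, and no marker of that list was at 0. Markers of dividing cells summed to 41.4 to 59.8 CPM in Ctrl, as opposed to 825 to 1060 in D0 and 1068 to 1275 in D2. The 8 neutrophil markers, none at 0 in a whole group, summed to 7.01 to 38.4, 62.0 to 211 and 52.2 to 206 CPM. The 9 monocyte markers summed to 9.14 to 10.4, 15.9 to 24.7 and 24.99 to 33.2 CPM, also with none at 0, and the part of these shifts in the results below was not tested beyond the fits named there.

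The members together made up a few percent of the UMIs of microglia-like cells. In the 24106 microglia-like cells, named by at least 3 microglia markers, the 37 genes took 3.318%, 4.004% and 3.921% of UMIs in the Ctrl libraries. The share was 3.83%, 4.04% and 3.66% in D0 and 3.60% and 4.45% in D2. All 3 groups overlapped, with Ctrl-1 the lowest and D2-2 the highest library.

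**Figure D1:**
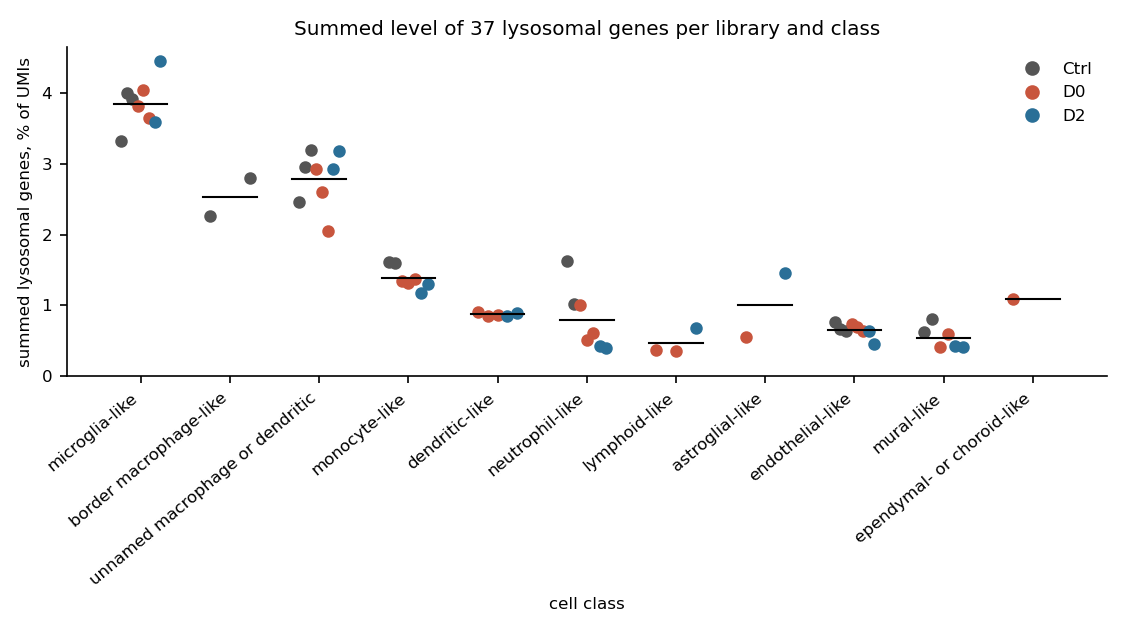
Summed level of the 37 members, as percent of all UMIs, in each cell class. Points are libraries with at least 20 cells of the class and bars are means, and microglia-like cells lay at 3.32% to 4.45%, above the other named classes.

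Across cell classes the sum was highest in microglia-like cells, at 3.85% ± 0.34 (SD, n = 8 libraries). Border-associated macrophage-like cells, the resident macrophages of meninges and perivascular spaces, reached 2.54% ± 0.38 (n = 2, Ctrl-1 and Ctrl-3 only). A class of 711 cells left unnamed among the macrophage, monocyte and dendritic clusters had 2.79% ± 0.39 (n = 8). Of its cells, 229 lay in subclusters with 9 or 10 microglia markers raised. Microglia markers were the type most often raised in those subclusters, but they were kept in this class and not counted as microglia-like. The subcluster of 131 cells also had 5 border-associated macrophage markers raised. The top genes of the other, of 98 cells, were led by Ccl12, Ifit3 and Ifit2. The sum was 1.39% ± 0.16 in monocyte-like (n = 7), 0.871% ± 0.024 in dendritic cell-like (n = 5, D0 and D2 only) and 0.797% ± 0.448 in neutrophil-like cells (n = 7). It was 0.653% ± 0.095 in endothelial-like (n = 8) and 0.544% ± 0.158 in mural-like cells (n = 6). Other scarce classes were astroglial-like at 1.00% ± 0.64 (n = 2), lymphoid-like at 0.469% ± 0.188 (n = 3) and ependymal- or choroid plexus-like cells at 1.096% in 1 library. No library of the other 8 named classes with at least 2 libraries reached the lowest microglia-like value. The members were left out of the genes used for clustering, but as classes were formed from the same cells, these levels are a description and carry no test.

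The members differed in the class where their mean was highest. The share of all genes was not counted for the counts by class here and below. They are therefore not read as a trait of the members. Over the 9 named classes with at least 2 libraries, 17 of the 37 genes had their highest mean in microglia-like cells, 14 in border-associated macrophage-like cells and 6 in another class. For 7 members the microglia-like libraries overlapped with no other named class, although 5 of them, all but Ctsd and Ctsl, overlapped with the unnamed class. These were Ctsd (7807 ± 874 CPM), the main aspartic protease of lysosomes, Ctss (6714 ± 805), a cysteine protease of antigen-presenting cells, Lgmn (3156 ± 674), the asparaginyl endopeptidase that processes other cathepsins, Ctsz (2109 ± 246), Laptm5 (1948 ± 245), Ctsl (1720 ± 334) and the alpha-mannosidase Man2b1 (843 ± 103; all n = 8). Ctsd, Ctss, Lgmn and Ctsb alone held 51.2% to 54.2% of the summed level. The range was wide, since 11 members averaged over 1000 CPM and 3 under 20 CPM.

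The other 20 members were not led by microglia, and 10 had a class in which every library lay above every microglia-like library. Ctsc, which activates granule serine proteases, was at 1520 ± 146 CPM in border-associated macrophage-like cells (n = 2) and 536 ± 123 in microglia-like cells (n = 8). In the same class Cd68, Asah1, Lipa, Neu1, Mcoln1 and Sgsh also lay above microglia. With only 2 libraries in that class, against 8, such a separation is more easily reached by any gene. Gm2a, the activator that presents ganglioside GM2 to hexosaminidase A, was highest in dendritic cell-like cells at 686 ± 111 CPM (n = 5, D0 and D2 libraries only). It was at 181 ± 46.0 in microglia-like cells of all 8 libraries and averaged 205 CPM in those of the same 5. In each of these 5 it was higher in dendritic cell-like cells. Laptm4a reached 745 ± 191 CPM in mural-like (n = 6) and 705 in endothelial-like cells, against 375 ± 82.9. Tfeb, the transcription factor that drives many lysosomal genes, was at 47.1 ± 11.8 CPM in monocyte-like cells (n = 7) and 26.2 in microglia-like cells. Gla, the alpha-galactosidase that cleaves globotriaosylceramide, was highest in neutrophil-like cells at 40.9 ± 22.5 CPM (n = 7), against 12.3 ± 6.00, but these libraries overlapped.

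Border-associated macrophage-like, monocyte-like and neutrophil-like cells were also compared with microglia-like cells within libraries. In both Ctrl libraries with enough cells, 15 members were higher in border-associated macrophage-like than in microglia-like cells and 18 were lower. Ctsb, a broad cysteine protease, averaged 3833 CPM there against 2111 in microglia-like cells of the same libraries, and Lamp1 1700 against 1115. The reverse was seen for Ctsd, at 2493 against 7927 CPM, and Ctss, at 2382 against 6317. Gla, Gm2a and Tfeb were higher in monocyte-like than microglia-like cells in all 7 libraries, and 29 members were lower in all 7. In neutrophil-like cells Gla was higher in all 7 libraries, and 30 members were lower in all 7.

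**Figure D2:**
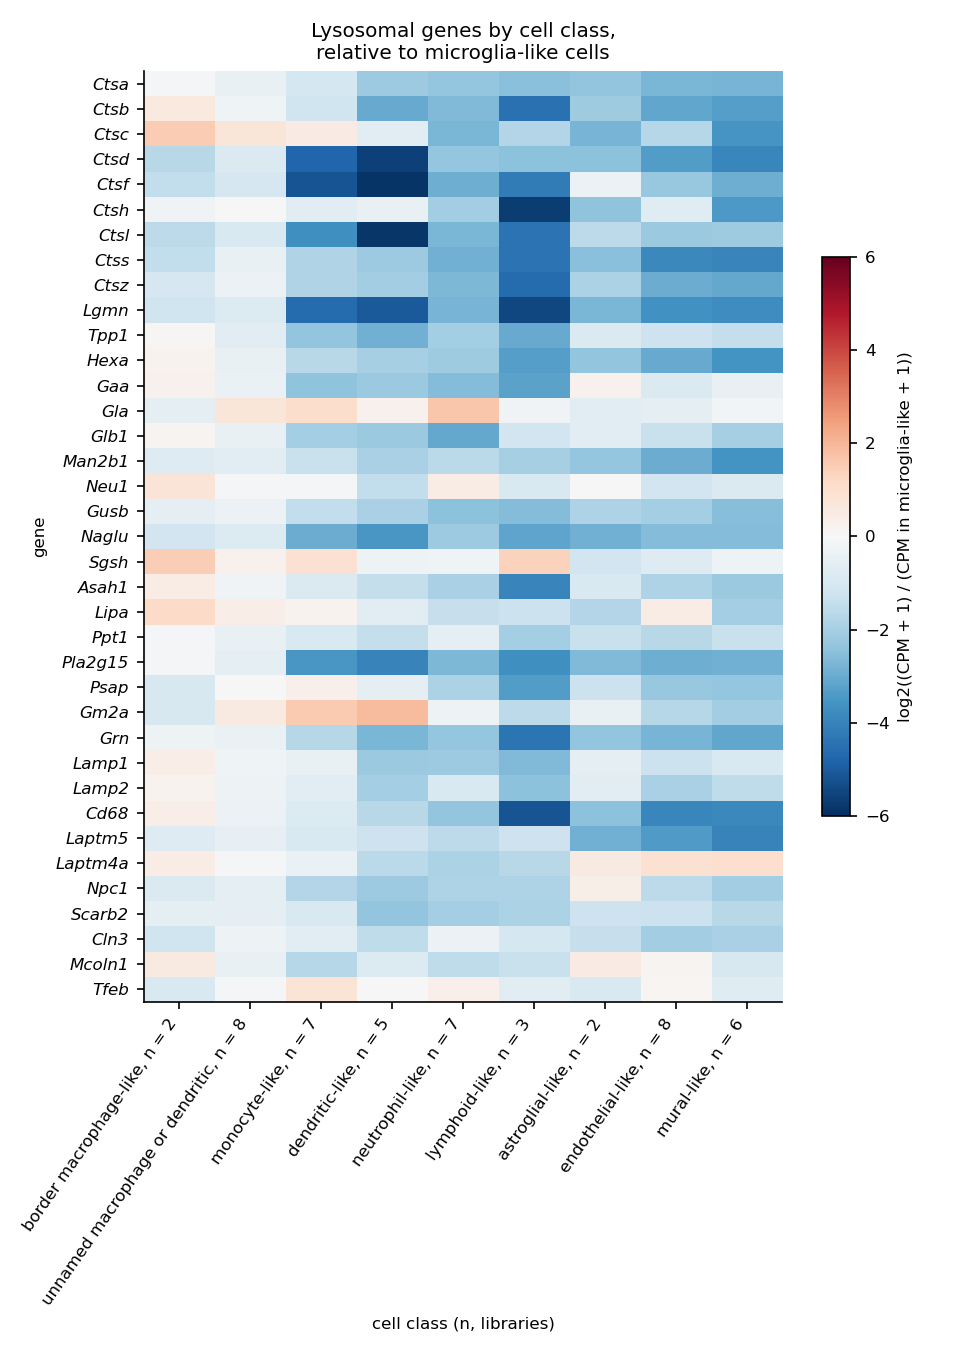
Level of each member (rows) in each cell class (columns, n libraries) relative to microglia-like cells, as the log2 ratio of mean CPM with 1 CPM added to both. Blue is lower and red higher than in microglia-like cells, with Ctsd, Ctss, Lgmn and Ctsz blue in every column, Ctsc reddest in border-associated macrophage-like cells, Gm2a in dendritic cell-like cells and Laptm4a in mural- and endothelial-like cells.

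RNA free in the suspension adds UMIs to every class. As a gauge, the microglial genes Cx3cr1 and P2ry12 stood at 9.19% and 7.79% of their microglial level in endothelial-like cells, at 5.59% and 7.45% in mural-like and at 15.1% and 17.8% in neutrophil-like cells. At or under the higher of each pair were 3 members in endothelial-like cells (Ctss, Cd68, Lgmn), 4 in mural-like cells (Ctsd, Ctss, Cd68, Laptm5) and 11 in neutrophil-like cells, among them Ctsb, Ctsl and Gusb. By this gauge those levels cannot be told apart from background, and their source was not tested. Ctsh, an aminopeptidase of the cathepsin family, stood at 59.6% and Laptm4a at 188% of the microglial level in endothelial-like cells.

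The promoters of the called members are shown because lysosomal genes are known to share an E-box bound by Tfeb and its relatives. RefSeq promoters of GRCm38.p6, from 250 bases before to 50 after the transcript start, were held for 33 of the 37 members. The E-box CACGTG, a palindrome that reads alike on both strands, was in 13 of these 33 (39.4%), in 8.09% of all genes of the table and in 7.15% of its 32851 promoters. The longer form TCACGTGA, which contains the E-box, was in 5 (15.2%; Cln3, Ctsa, Ctsd, Gla and Mcoln1), in 1.13% of all genes and in 0.974% of all promoters. The 3 members below were called in both D0 and D2 against Ctrl and had a promoter in the table. The letters are a description of the sequence and not evidence of binding, and capitals mark the E-box, in its longer form where present.
Gusb promoter, chr5:130003000-130003299, minus strand: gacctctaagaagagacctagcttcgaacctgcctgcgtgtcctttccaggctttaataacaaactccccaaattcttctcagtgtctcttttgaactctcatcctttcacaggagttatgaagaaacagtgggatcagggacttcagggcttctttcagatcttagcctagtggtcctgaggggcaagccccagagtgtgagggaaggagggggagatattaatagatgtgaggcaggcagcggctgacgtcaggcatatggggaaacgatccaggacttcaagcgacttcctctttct
Gla promoter, chrX:134600956-134601255, minus strand: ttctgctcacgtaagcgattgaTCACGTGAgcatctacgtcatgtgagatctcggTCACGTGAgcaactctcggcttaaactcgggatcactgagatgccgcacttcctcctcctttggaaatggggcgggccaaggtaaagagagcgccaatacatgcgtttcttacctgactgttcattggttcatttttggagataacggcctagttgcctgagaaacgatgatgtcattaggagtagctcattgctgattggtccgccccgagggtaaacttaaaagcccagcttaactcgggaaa
Sgsh promoter, chr11:119355461-119355760, minus strand: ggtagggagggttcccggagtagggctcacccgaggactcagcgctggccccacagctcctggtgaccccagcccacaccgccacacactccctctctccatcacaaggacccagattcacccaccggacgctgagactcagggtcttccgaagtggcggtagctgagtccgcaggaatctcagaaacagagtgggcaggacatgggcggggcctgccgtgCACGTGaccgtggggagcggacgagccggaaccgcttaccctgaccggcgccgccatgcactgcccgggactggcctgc
Gla held the longer form at 2 places, with the E-box starting 227 and 194 bases before the start. Starts here are those of RefSeq transcripts, which for Gla and Sgsh lie inside the GENCODE gene spans given below. Sgsh held 1 E-box, 29 bases before its RefSeq start, and Gusb held none in this window. As given below, Gla and Gusb rose and Sgsh fell.

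In microglia-like cells, UMIs were summed per library and tested with edgeR's quasi-likelihood test over 12438 genes, with Benjamini-Hochberg adjustment and calls at an adjusted p under 0.05. Levels below are scaled CPM, that is CPM after TMM scaling of the libraries. Fewer transcripts per cell and fewer cells of a subtype cannot be told apart in such sums. In D0 against Ctrl, Gusb, Gla, Ctsh, Gm2a and Ctsc rose and Sgsh fell. These 5 higher members are 13.5% of the 37, where 12.3% of all genes were called higher, and the 1 lower member is 2.70%, where 7.46% were called lower. In D2 against Ctrl, Gusb, Gla, Ctsh, Lamp1 and Ctsb rose and Pla2g15 and Sgsh fell, so that 13.5% were called higher and 5.41% lower, beside 10.4% and 7.44% of all genes. The shares called higher were close to those of all genes. Counts for single subfamilies below rest on few genes and are not read as a trait of the subfamily. D0 and D2 were compared with the same Ctrl libraries, so their values are set side by side and are not independent.

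**Figure D3:**
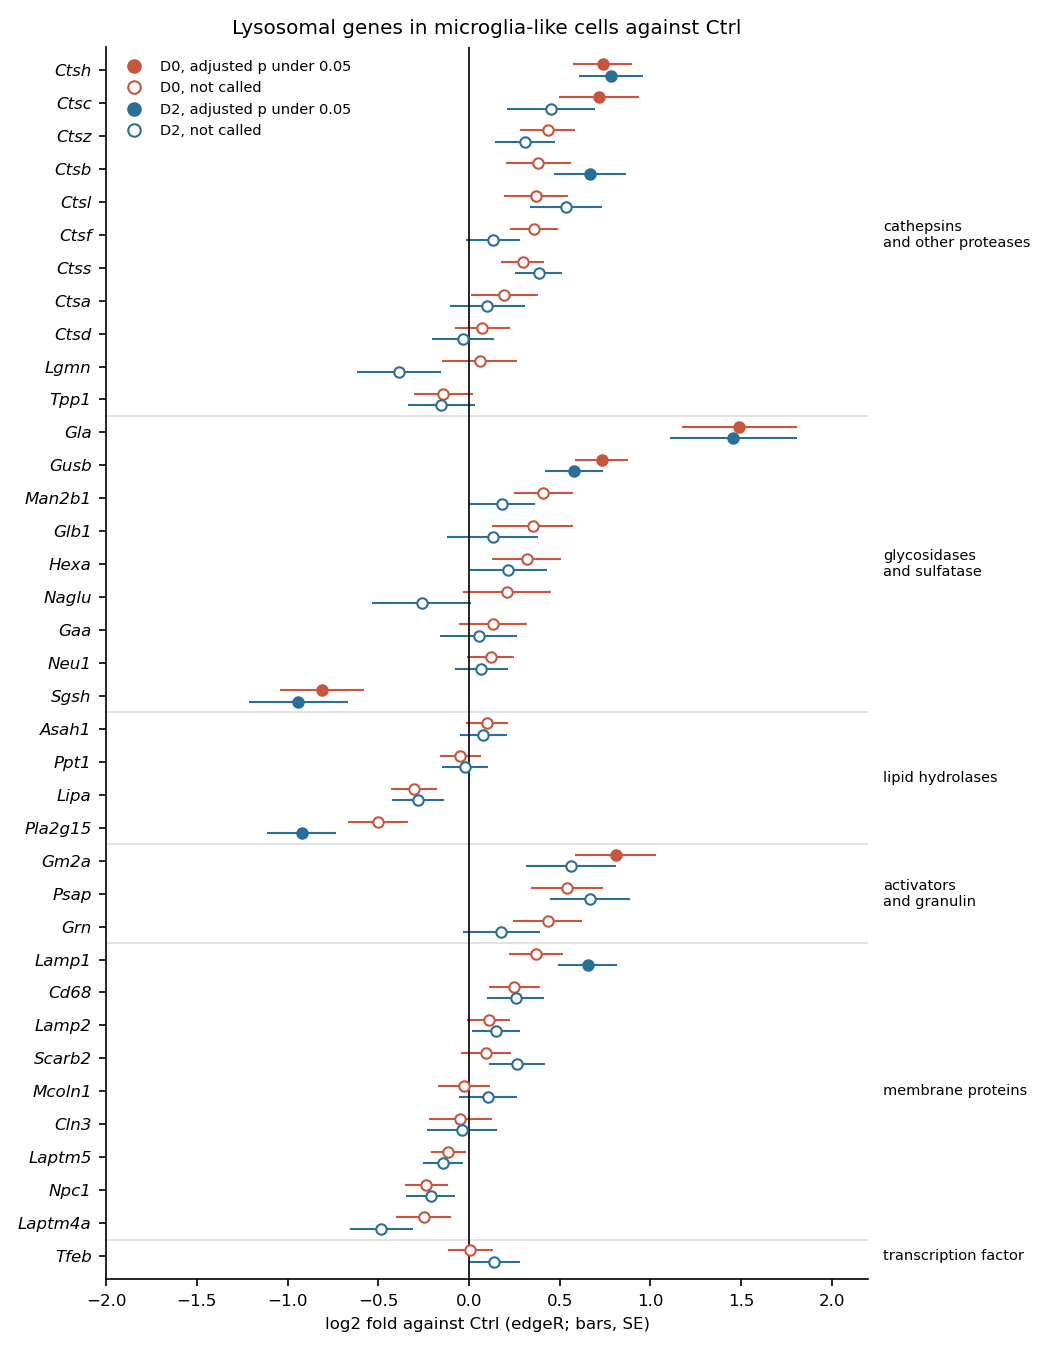
Log2 fold change of each member in microglia-like cells, D0 against Ctrl and D2 against Ctrl, with bars of 1 standard error and filled points for called members. Gla lies farthest to the right, at 1.49 and 1.46, and Sgsh and Pla2g15 farthest to the left.

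Among the glycosidases and the sulfatase, 2 of 9 rose and 1 fell in both comparisons. Gusb, beta-glucuronidase (chr5:129989011-130003049, GRCm38, GENCODE), was at 168, 233 and 223 scaled CPM in Ctrl, 302, 358 and 376 in D0 and 308 and 314 in D2. Each treated library was above each Ctrl library. The log2 fold was 0.73 ± 0.14 (SE, adjusted p = 0.00781) in D0 and 0.58 ± 0.16 (adjusted p = 0.0332) in D2. Gla (chrX:134588149-134601125), the least abundant of the members that rose, was at 4.33, 6.56 and 7.12 scaled CPM in Ctrl, 9.93, 24.8 and 15.5 in D0 and 14.9 and 18.0 in D2. Its groups also did not overlap with Ctrl, although D0 libraries ranged widely, and the log2 folds were 1.49 ± 0.32 (adjusted p = 0.0110) and 1.46 ± 0.35 (adjusted p = 0.0185).

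Sgsh, the sulfatase that acts on heparan sulfate (chr11:119343425-119355536, with Card14 on the other strand), fell in both. It was at 5.91, 10.4 and 9.69 scaled CPM in Ctrl, 4.81, 5.47 and 4.43 in D0 and 4.04 and 5.02 in D2. The lowest Ctrl library, Ctrl-1, lay just above the highest D0 library. The log2 fold was −0.81 ± 0.23 (adjusted p = 0.0369) in D0 and −0.94 ± 0.27 (adjusted p = 0.0406) in D2. The other 6 (Hexa, Gaa, Glb1, Man2b1, Neu1 and Naglu) did not pass in either comparison. Man2b1 was nearest, at 735 ± 161 in Ctrl and 977 ± 107 in D0 (SD, n = 3 each, log2 0.41, adjusted p = 0.109).

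Of the 11 proteases, 2 rose in each comparison and none fell. Ctsh (chr9:90054152-90076089) was at 637, 821 and 764 scaled CPM in Ctrl, 1286, 1388 and 1029 in D0 and 1083 and 1469 in D2. No treated library fell within the Ctrl range, and the log2 folds were 0.74 ± 0.16 (adjusted p = 0.0128) and 0.78 ± 0.18 (adjusted p = 0.0148). Ctsc (chr7:88278085-88310888, with Gm26522 on the other strand) was at 289, 492 and 445 in Ctrl, 494, 762 and 760 in D0 and 525 and 593 in D2. The lowest D0 library, D0-1, lay barely above Ctrl-2, and below it before TMM scaling (479 against 514 CPM). Ctsc rose in D0 (log2 0.72 ± 0.22, adjusted p = 0.0477) and was 0.45 ± 0.24 above Ctrl in D2 (adjusted p = 0.233). Ctsb (chr14:63122462-63145923, with Fdft1 on the other strand) was at 1627, 2266 and 2254 in Ctrl, 2630, 3017 and 2362 in D0 and 2634 and 3872 in D2. Its log2 fold was 0.38 ± 0.18 in D0 (adjusted p = 0.168) and it rose by 0.67 ± 0.20 in D2 (adjusted p = 0.0458), with D2-2 the highest library.

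The 3 other most abundant members were all proteases and none passed. Ctsd (chr7:142375911-142388038, overlapped on its own strand by Gm49369) was at 6203, 8590 and 8365 scaled CPM in Ctrl, 7722, 9186 and 7477 in D0 and 6686 and 8390 in D2. All its groups overlapped, and its log2 folds were 0.07 ± 0.15 (adjusted p = 0.766) and −0.03 ± 0.17 (adjusted p = 0.912). Ctss (chr3:95526786-95556403) was at 5841, 5852 and 5713 in Ctrl, 7724, 7117 and 6517 in D0 and 6612 and 8551 in D2. Its groups did not overlap with Ctrl by scaled CPM, but before TMM scaling D0-3 (6078 CPM) lay within the Ctrl range (6062 to 6572). Its log2 folds of 0.30 ± 0.12 (adjusted p = 0.106) and 0.39 ± 0.13 (adjusted p = 0.0686) missed the threshold. Lgmn (chr12:102394084-102439813) was at 2305, 4042 and 3581 in Ctrl, 2737, 3814 and 3796 in D0 and 2372 and 2695 in D2. Only Ctrl-1 of the Ctrl libraries lay below the D2 libraries, and the log2 folds were 0.06 ± 0.21 (adjusted p = 0.869) and −0.39 ± 0.23 (adjusted p = 0.288).

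**Figure D4:**
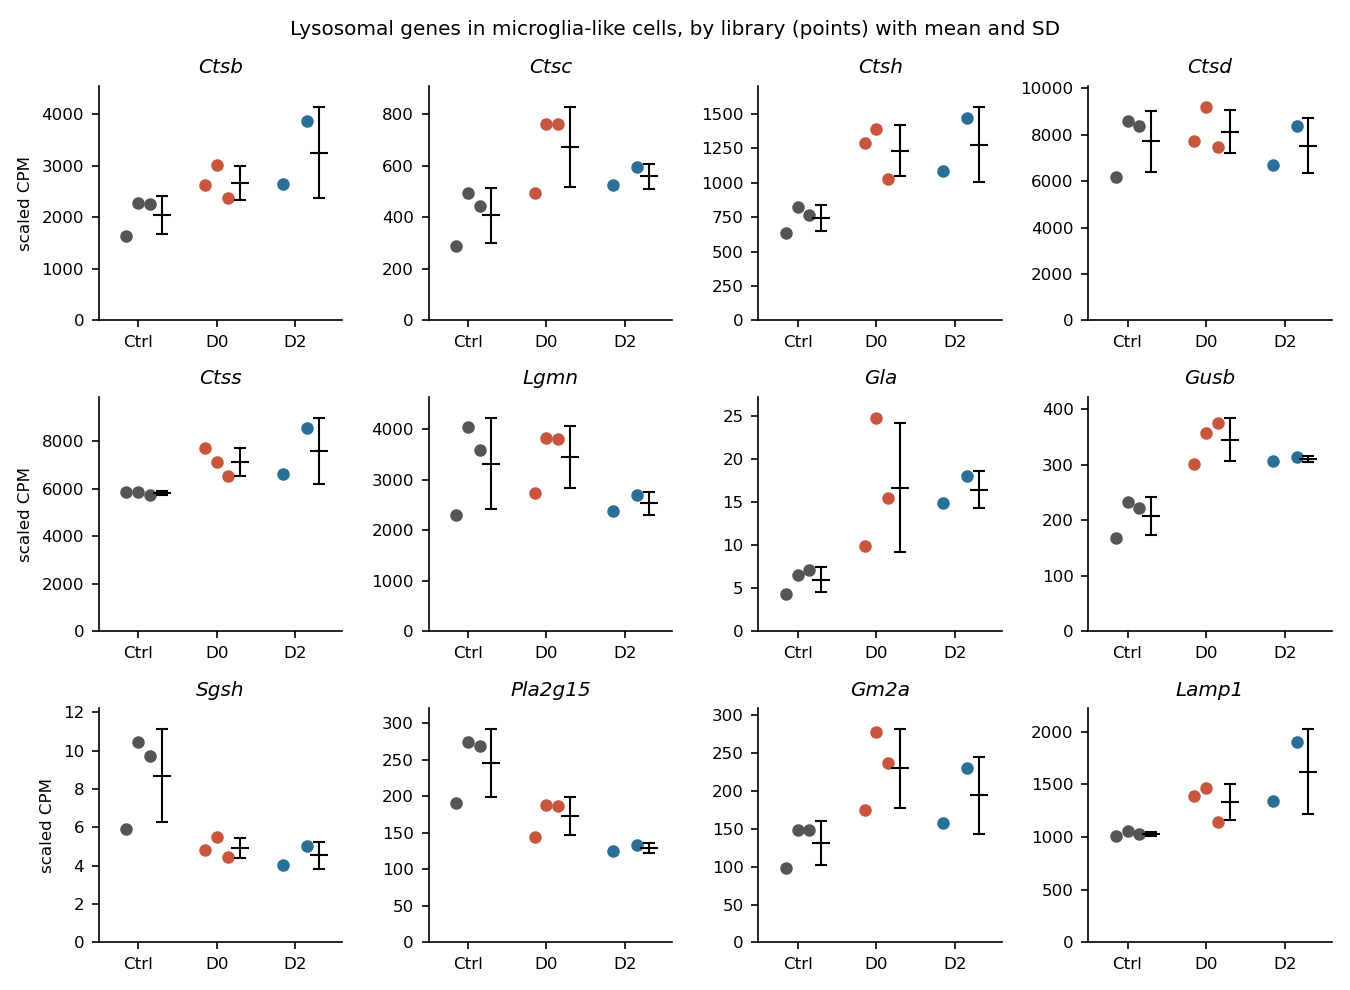
Scaled CPM of 12 members, the 9 that were called and the abundant Ctsd, Ctss and Lgmn, in microglia-like cells. Points are libraries by group, beside their mean and SD. Every D0 and D2 library lies above every Ctrl library for Gusb, Gla, Ctsh, Ctsb, Ctsc, Gm2a, Lamp1 and the uncalled Ctss, and below for Sgsh and Pla2g15. In CPM before TMM scaling this also held for D2, but for D0 not for Ctsb, Ctsc, Lamp1 and Ctss. Ctsd and Lgmn overlap with Ctrl.

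Of the 4 lipid hydrolases, only Pla2g15 passed, in D2. Pla2g15, the lysosomal phospholipase (chr8:106150399-106164715), was at 191, 275 and 269 scaled CPM in Ctrl, 144, 188 and 187 in D0 and 125 and 134 in D2. The D0 libraries lay just below Ctrl and the D2 libraries below D0. It fell by 0.92 on the log2 scale in D2 (SE 0.19, adjusted p = 0.00865) and its fold in D0 was −0.50 ± 0.16 (adjusted p = 0.0591). Lipa, the acid lipase for cholesteryl esters, was at 100 ± 11.7 in Ctrl, 81.2 ± 3.84 in D0 and 82.6 ± 11.9 in D2, and the ceramidase Asah1 and the thioesterase Ppt1 overlapped in all groups.

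Gm2a (chr11:55098115-55113029) was the called member among the 3 activators and granulin genes. It was at 97.9, 148 and 148 scaled CPM in Ctrl, 175, 277 and 237 in D0 and 158 and 230 in D2. All treated libraries were above Ctrl, and it rose in D0 (log2 0.81 ± 0.22, adjusted p = 0.0328), while the D2 fold was 0.56 ± 0.25 (adjusted p = 0.147). Psap, the precursor of the saposins, was at 1612 ± 355 in Ctrl, 2345 ± 322 in D0 and 2561 ± 717 in D2, with adjusted p of 0.0871 and 0.0650. Grn, the precursor of granulins, was at 916 ± 223, 1238 ± 196 and 1037 ± 126.

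Of the 9 membrane proteins, 1 passed. Lamp1 (chr8:13159161-13175338, with Grtp1 on the other strand), a main glycoprotein of the lysosomal membrane, was at 1013, 1053 and 1028 scaled CPM in Ctrl, 1389, 1469 and 1141 in D0 and 1339 and 1905 in D2. By scaled CPM the Ctrl libraries were close together and below all others. Before TMM scaling, D0-3 lay below them, at 1064 CPM against 1090 to 1139. Lamp1 rose by 0.65 ± 0.16 on the log2 scale in D2 (adjusted p = 0.0220) and was 0.37 ± 0.15 above Ctrl in D0 (adjusted p = 0.108). Its partner Lamp2 was at 455 ± 29.4, 490 ± 41.7 and 504 ± 73.0, Cd68 at 602 ± 106, 715 ± 42.1 and 719 ± 71.7, and Laptm5 at 2046 ± 53.6, 1892 ± 70.4 and 1852 ± 207. Laptm4a, at 429 ± 84.1, 361 ± 25.6 and 307 ± 33.9, had a D2 fold of −0.48 (adjusted p = 0.0854). Npc1, Scarb2, Cln3 and the calcium channel Mcoln1 did not pass either.

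Tfeb itself did not differ detectably. It was at 25.5 ± 0.663 scaled CPM in Ctrl, 25.6 ± 3.20 in D0 and 28.1 ± 1.63 in D2, with log2 folds of 0.01 and 0.14.

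Taking the members as a list, 27 of 37 had a log2 fold above 0 in D0 and 25 in D2, with medians of 0.19 and 0.13 beside −0.05 and −0.03 over all genes. The signs depended on the scaling, which moved all genes alike. With libraries scaled by total UMIs, an alternative chosen after seeing the data, the median of all genes moved to −0.26 and −0.14, the members' medians became −0.01 and 0.02, and 18 and 20 members lay above 0. The members called were then 4 higher and 6 lower in D0, beside 9.14% and 21.9% of all genes, and 5 higher and 3 lower in D2, beside 8.74% and 12.4%. By scaled CPM, 12 members in D0 lay higher than Ctrl in every library and 5 lower, beside 18.8% and 19.8% of all genes. In D2, 12 lay higher and 4 lower, beside 23.2% and 25.8%.

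By scaled CPM, Ctrl-1 was the lowest Ctrl library for 33 of the 37 members, and the lowest of all 8 libraries for 27. Its TMM factor was the largest, at 1.126, against 1.045 and 1.061 in Ctrl-2 and Ctrl-3, which lowers all genes there alike. Before that scaling, too, Ctrl-1 had the lowest summed level of the Ctrl libraries, at 3.318% of UMIs against 4.004% and 3.921%. The share of all genes was not counted, so the low levels in Ctrl-1 are not read as a trait of the members. Ctrl-1 was also the only Ctrl library whose file names Cell Ranger 3.0.2, the version named in all 5 D0 and D2 libraries compared. Within the 3.0.2 libraries alone, where Ctrl has 1 library whose spread is taken from the other groups, Gusb, Ctsc, Man2b1 and Glb1 were called higher in D0 and Gusb in D2, with no member called lower. Of all genes 4.85% were then called higher and 0.521% lower in D0, and 4.37% and 0.924% in D2. With the version as a term in the fit of all 8 libraries, 14 members were called higher in D0 and none lower, beside 7.94% and 2.42% of all genes, and the calls of Sgsh in D0 (adjusted p = 0.467) and of Lamp1 (0.113), Pla2g15 (0.0934) and Sgsh in D2 (0.386) ended. Of the 8 libraries only Ctrl-2 and Ctrl-3 carried the other version. With that term, too, the comparison with Ctrl therefore rested on Ctrl-1 alone. The version and the library cannot be told apart.

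Several calls rested on single libraries. Over the 8 fits that each left out 1 library, Gusb and Gla in D0 were called in all 8, with adjusted p up to 0.0347 and 0.0382. Ctsh lost its call in D0 without D0-2 (adjusted p = 0.0578) and in D2 without D2-2 (adjusted p = 0.149). Gm2a lost its call without any 1 of the Ctrl libraries, D0-2 or D0-3 (adjusted p up to 0.130), and Ctsc kept it in only 1 of the 8 fits, the one without D0-1 (adjusted p up to 0.162). Sgsh in D0 was called in 2 of 8 (not without Ctrl-2, Ctrl-3, a D0 library or D2-1, adjusted p up to 0.140). In D2, Gla and Pla2g15 lost their calls without D2-1 or D2-2 (adjusted p up to 0.113 and 0.0725), and Gusb did so without Ctrl-3, D0-2, D2-1 or D2-2 (up to 0.149). Lamp1 did so without Ctrl-2, Ctrl-3 or D2-2 (up to 0.218), and Ctsb in all fits but the one without D2-1 (up to 0.360). Sgsh in D2 was called in 2 of 8, without Ctrl-1 or D0-3 (up to 0.233). Without the clusters of dividing cells, the calls of Ctsc (adjusted p = 0.102) and Sgsh in D0 (0.110) and of Gusb (0.0596) and Sgsh in D2 (0.142) also ended. The same calls ended when cells were thinned to 2000 UMIs (adjusted p of 0.0970, 0.176, 0.0527 and 0.174), and fits of only the groups compared ended the calls of Ctsc in D0 (0.0543) and of Ctsb (0.0623) and Sgsh (0.0585) in D2.

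Replicate numbers are shared between the groups. Ctrl and D0 libraries of the same number had positively correlated deviations (r = 0.505, 0.316 and 0.241). However, Ctrl-3 and D0-2, of unlike number, had r = 0.357, so a pairing by number is not settled. With the number as a block, 10 members were called higher in D0 and 2 lower, beside 13.9% and 9.2% of all genes. Added to the 5 were Psap (log2 0.56, adjusted p = 0.0106), Ctsz (0.45, 0.0169), Grn (0.45, 0.0227), Ctsf (0.37, 0.0315) and Man2b1 (0.42, 0.0367), and Pla2g15 joined Sgsh among those lower (−0.50, 0.0148).

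No member was called between D2 and D0, and 0% of all genes were called higher and 0% lower by edgeR's quasi-likelihood test. Of the 12438 genes, 790 had an unadjusted p under 0.05, and 1 of them was a member. That was Pla2g15, whose log2 fold was −0.42 ± 0.19 (adjusted p = 0.723). DESeq2 called 10 genes higher and 16 lower, and no member. The interval of 2 standard errors ran from −0.47 to 0.17 for Gusb, from −0.72 to 0.66 for Gla and from −0.31 to 0.41 for Ctsh, so a moderate difference cannot be seen with these libraries. For 6 members, Ctsf, Lgmn, Man2b1, Naglu, Pla2g15 and Laptm4a, both D2 libraries lay below all D0 libraries, and for none above, where 12.5% of all genes lay below and 10.9% above.

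The called members were also followed within the 8 microglia-like clusters that had at least 2 libraries per group. Here levels are CPM of the total UMIs of the cluster in each library, without the TMM scaling used for the calls. Total-UMI scaling lowered the members' median folds, as given above, so these counts and the calls are on unlike scales. The D0 mean lay above Ctrl in 8 of 8 clusters for Ctsh, Gusb and Gla and in 7 for Gm2a and Ctsc. The D2 mean lay above in 8 for Ctsh, Gusb, Lamp1 and Ctsb and in 7 for Gla. Sgsh and Pla2g15 lay below Ctrl in all 8 in both groups. Fewer clusters had every library of the group beyond every Ctrl library. In D0 these were 6 of 8 for Ctsh and Gm2a, 5 for Gusb, 3 for Gla and Sgsh and 2 for Ctsc. In D2 they were 8 for Pla2g15, 7 for Lamp1, 6 for Gla and Gusb and 5 for Ctsh, Ctsb and Sgsh. These clusters hold the cells whose sums gave the calls, so a like direction was partly built in, and this too is a description. Of uncalled members, the D0 mean lay above Ctrl in 8 clusters for Ctsl, Ctsz, Glb1 and Grn and in 0 for Laptm5, Laptm4a and Tpp1. Psap had every D0 library above Ctrl in 6 clusters, as many as Ctsh and Gm2a. The share of all genes was not counted.

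**Figure D5:**
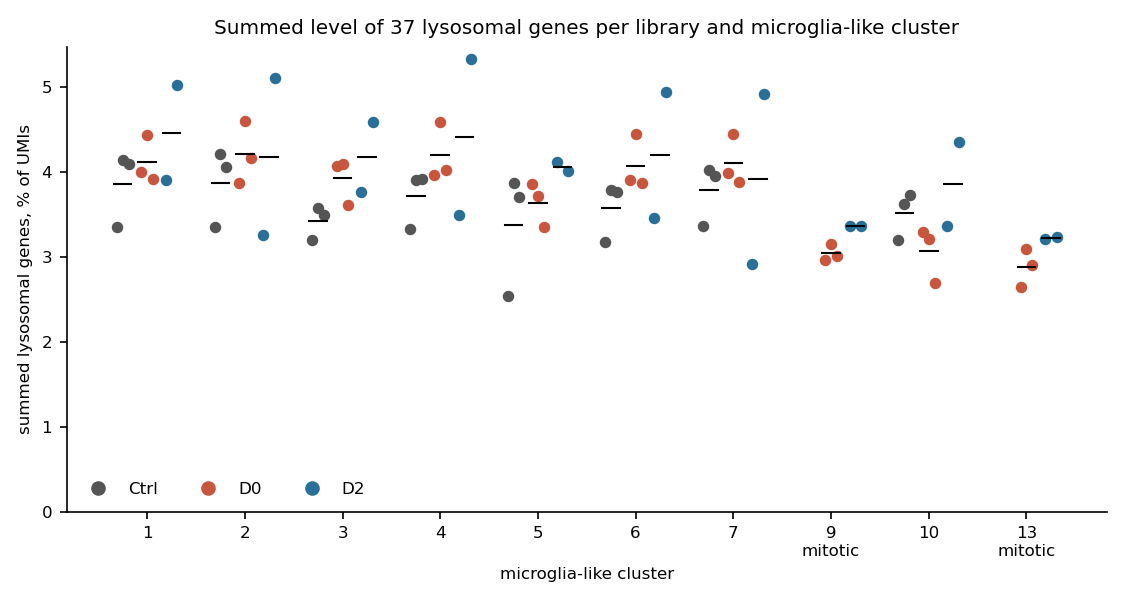
Summed level of the 37 members, as percent of UMIs, in each microglia-like cluster by group, with points for libraries and bars for means. The clusters of dividing cells, marked mitotic, have the lowest means in D0 (3.05% and 2.88%) and D2 (3.37% and 3.22%).

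By share of cells, Ctsh had at least 1 UMI in 94.1%, 95.8% and 91.5% of microglia-like cells in Ctrl, D0 and D2 (mean of libraries), and in 71.8% to 79.5% of endothelial-like cells. After each cell was thinned to 2000 UMIs, which left out 720 of 9530 cells in Ctrl, 758 of 9350 in D0 and 852 of 5226 in D2, these became 78.3%, 86.9% and 88.1%, beside 63.6% to 65.8%. Gla was found in 4.24%, 9.84% and 7.61% of microglia-like cells, or 1.19%, 2.47% and 2.81% after thinning, beside 1.67%, 1.21% and 1.75% of endothelial-like cells. The Ctrl share of Gla lay under the endothelial one and the D0 and D2 shares after thinning lay above it. Before thinning the endothelial shares were 5.26%, 3.54% and 3.21%. Endothelial shares pool the libraries of a group, so they have no spread, and they rest on few cells with the gene. Since the level of Gla in endothelial-like cells was 66.1% of the microglial one, against 9.19% for Cx3cr1, the endothelial share does not set its background.

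Other genes of the pathway were taken from a list of 73, of which 70 could be tested. In D0, 15 (21.4%) were called higher and 4 (5.71%) lower, and in D2 14 (20%) and 4 (5.71%), beside the 12.3%, 7.46%, 10.4% and 7.44% of all genes given above. All 3 cathepsin inhibitors were called in both comparisons. Cst7, cystatin F, which restrains cathepsin C and other cysteine proteases within lysosomes, was at 12.2, 10.4 and 12.7 scaled CPM in Ctrl, 66.1, 72.1 and 53.6 in D0 and 46.1 and 81.9 in D2. It rose by 2.44 ± 0.22 in D0 (adjusted p = 7.06e-05) and by 2.44 in D2 (adjusted p = 0.000112). Cstb, cystatin B of the cytosol, was at 70.8, 70.2 and 75.6 in Ctrl, 158, 168 and 147 in D0 and 149 and 178 in D2 and rose in both (log2 1.13 and 1.18). Cst3, cystatin C and the most abundant gene of the list, fell from 57700 ± 4034 in Ctrl to 45278 ± 2330 in D0 and 38272 ± 6087 in D2 (log2 −0.35, adjusted p = 0.0474, and −0.59, adjusted p = 0.00893).

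Among the other genes, Scpep1, a serine carboxypeptidase, rose by 0.87 and 1.17 on the log2 scale, and the tetraspanin Cd63, a membrane protein of late endosomes, by 0.72 and 1.04. Npc2, the soluble partner of Npc1 in cholesterol export, rose by 0.67 in D0 (adjusted p = 0.00609) and was also called higher in D2. Gnptab, which makes the mannose 6-phosphate tag, rose by 0.99 in D2 (adjusted p = 0.0286) and was not called in D0. Cd164, a sialomucin of endosomes and lysosomes, fell from 369 ± 8.35 scaled CPM in Ctrl to 162 ± 32.9 in D0 and 125 ± 19.1 in D2 (log2 −1.18 and −1.57). The protease Ctso fell in both (−0.53 and −0.83), the iduronate sulfatase Ids fell in D2 (−0.76), and Tfe3, a relative of Tfeb, fell in D0 (−0.39, adjusted p = 0.0385). Of the 15 subunits of the proton pump tested, 2 rose in D0 and 3 in D2, and none fell. Of all genes, 12.3% and 10.4% were called higher and 7.46% and 7.44% lower. These small counts are not read as a trait of the pump.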

How the data were processed

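The authors used Cell Ranger and the mm10 mouse genome (3.1.0 in the submitters' processing notes, 3.0.2 in 6 file headers and 3.1.0 in 3) and deposited raw UMI counts per gene and called barcode, neither normalized nor filtered further. From 36391 barcodes in 9 libraries, 30463 cells remained that held 500 to 20000 UMIs and 200 genes or more, with a mitochondrial share of 10% or less. Counts were scaled to 10000 per cell, log transformed and clustered without the members (scanpy 1.11.5, leidenalg 0.10.2, python 3.11.15, 3000 variable genes, 10 principal components, 20 neighbours, resolution 0.6). Only the cells of the 8 libraries compared were clustered. Each cell of D2-3 was given the most common cluster among its 30 nearest neighbours in those libraries, and its name came from that cluster. A cluster took a cell type's name, as "-like", from at least 3 of its markers that reached 20 CPM with a log2 fold above 1 (pseudocount 10 CPM), or was microglia-like with at least 3 microglia markers at 100 CPM or more. These rules were set with the clusters in view, and rebuilt names can differ from those of the study. No doublets were removed, since Scrublet marked only 73 of 30463 cells (0.24%). Clusters named by macrophage, monocyte or dendritic markers were clustered again and named by the same markers. Their subclusters in which microglia markers were the type most often raised, or no type clearly was, formed the unnamed class. Levels by class used libraries with at least 20 cells of it.

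UMIs of microglia-like cells were summed per library and all genes tested with edgeR 4.0.16 in R 4.3.3 (filterByExpr, TMM, 1 fit of the 3 groups, quasi-likelihood test, Benjamini-Hochberg adjustment), after the script had been tested on simulated data. DESeq2 1.42.0 was an alternative. Adjusted p-values measure the spread between libraries, of which D0 and D2 each pool 2 brains. Ctrl and D0 libraries of the same number had correlated deviations from their group means (r = 0.505, 0.316 and 0.241 across genes; among pairs of unlike number, Ctrl-3 with D0-2 had 0.357, Ctrl-2 with D0-3 0.117 and the others were below 0), so the fit with the number as a block is given beside that comparison; the labels do not say what the number marks. Values in every library are given for members called in any comparison and for the 4 with the highest mean, and of the other lysosomal genes the 5 largest called changes in each direction are named where the higher group reached 20 CPM. The members and lists were chosen with earlier results of these data known. Gene positions are from GENCODE (GRCm38), which held 30934 of the 31053 genes, and promoters from RefSeq. Antisense and overlapping genes are named beside the members concerned.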

Additional observations from a re-analysis of the deposited data

Results flagged for a closer look

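D2-3 was left out of all comparisons, and 3 members were higher in its microglia-like cells than in any Ctrl library. Ctsc was at 1227 CPM, against at most 514 in Ctrl. Gusb was at 468 CPM, against at most 243, and Gla at 8.27 CPM, against at most 7.55. Gla was there below every D0 and D2 library compared, of which the lowest was D0-1 at 9.62 CPM. The library rests on 825 microglia-like cells with a mitotic marker sum of 2718 CPM, and the part of these features in the 3 values was not tested. The shares of all genes that lay above Ctrl or below all 8 libraries there were not counted, so these counts are not read as a trait of the members.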

How the results depend on the processing

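Each comparison was refitted under 27 alternatives. No member called in the reported fits changed direction. Over the members' fold changes, 1853 refitted values kept their side of the threshold, 88 lost a call and 57 gained one. Direction was compared only where the reported fit or the refit called the member, so the 1853 can include uncalled values that changed sign. The causes were not tested. With the Cell Ranger term, as with the 3.0.2 libraries only, the comparison with Ctrl rests on Ctrl-1 alone. In D0 against Ctrl, members called higher (5) became 8 with DESeq2, 10 with the replicate block, 0 with D2-3 included and 14 with a term for the Cell Ranger version, and 2 to 5 when each library was left out. Those called lower (1) became 2 with DESeq2, with no filter on low counts, with the replicate block, with all kept myeloid clusters and with no upper limit on UMIs, 6 with total-UMI scaling, 3 without clusters led by immediate-early or heat-shock genes, and 0 with D2-3 included, with the Cell Ranger term, without mitotic clusters, after thinning to 2000 UMIs and with the 3.0.2 libraries only, and 0 to 3 when each library was left out.

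In D2 against Ctrl, members called higher (5) became 9 with the replicate block, which here rests on 2 pairs (r = 0.0556 and 0.11), 0 with D2-3 included, 1 with the 3.0.2 libraries only, and 0 to 6 when each library was left out. Those called lower (2) became 1 with only the groups compared, without mitotic clusters, after thinning and without the top Scrublet scores, 0 with D2-3 included, with the Cell Ranger term and with the 3.0.2 libraries only, and 0 to 4 when each library was left out. Between D2 and D0 no member was called under any of the 27. The block changed no count of the other lysosomal genes by over 1.5 times.

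Other lysosomal genes called higher in D0 (15) became 4 with D2-3 included, 8 after thinning and 3 with the 3.0.2 libraries only (10 to 16 when each library was left out). Those lower (4) became 13 with total-UMI scaling, 2 after thinning and 1 with D2-3 included, the Cell Ranger term, no mitotic clusters or the 3.0.2 libraries only (1 to 4). In D2, those higher (14) became 9 with total-UMI scaling, 7 with D2-3 included or the Cell Ranger term, 8 after thinning and 5 with the 3.0.2 libraries only (6 to 15), and those lower (4) became 10 with total-UMI scaling, 2 with the Cell Ranger term and 1 with the 3.0.2 libraries only (2 to 10). When each library was left out, summed levels were 3.62% to 3.96% for Ctrl, 3.74% to 3.93% for D0 and 3.60% to 4.45% for D2, and the D2 mean became 3.23% with D2-3 included. Where only 1 library of D2 was left, its spread was taken from the other groups. Total-UMI scaling, the 3.0.2 libraries only and the fits without shallow clusters or without clusters led by immediate-early or heat-shock genes were chosen after seeing the data. Adding unnamed low-UMI clusters could not be run, as no such cluster arose. With 2 or 3 libraries per group, and some members at a few CPM, small changes cannot be seen.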
